A study of Homo sapiens with 6 samples.

Results

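Classical cadherins are the transmembrane proteins of adherens junctions, and catenins are the proteins that bind their cytoplasmic tails. The 9 genes considered were CDH1, CDH2, CDH3, CDH6 and CDH11 for the cadherins and CTNNA1, CTNNB1, CTNND1 and JUP for the catenins. They were followed through every probe set that the platform annotation pairs with 1 gene symbol, where that symbol is 1 of the 9. This gave 31 of the 49293 non-control probe sets and 8 of the 18132 genes tested. The rule picks probe sets by gene name and uses no measured value. CTNND1, the gene of p120-catenin, had 0 probe sets of its own, and the 5 that carry it together with a second symbol are not analysed here.

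RNA came from BCPAP, a cell line of a human papillary thyroid carcinoma. The cells had received a lentiviral short hairpin RNA to CSF2, which encodes GM-CSF, a cytokine (shCSF2, n = 3 arrays), or a non-targeting hairpin (shCtrl, n = 3 arrays). In both groups puromycin selection began 48 hours after transduction and lasted 7 days, so the controls carry a vector and the selection too. The sources used here do not give the hairpin sequences, their number, the promoter that drives them or whether cells were cloned.

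In an adherens junction a cadherin on one cell binds a cadherin on its neighbour. Inside the cell its tail is held by p120-catenin and by beta-catenin or plakoglobin, and alpha-catenin links that pair to actin. E-cadherin (CDH1) is the cadherin of most epithelia, including normal thyroid follicles, whereas N-cadherin (CDH2) and cadherin-11 (CDH11) are typical of mesenchymal cells and of carcinoma cells that have lost epithelial traits. Beta-catenin also acts in the nucleus with TCF and LEF factors in Wnt signalling.

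Values are read as log2 expression summaries. The sources used here do not give the scale, and the values span 1.45 to 14.1, above what a natural or decimal logarithm of scanner intensities reaches. Array medians lay between 5.77 and 5.79, and the correlation of 2 arrays over all probe sets, which are not independent replicates, was 0.998 in a group and 0.994 between groups. The labels call the arrays of a group biological replicates. No probe set was paired with CSF2 (0 found), so the labels could not be checked against the targeted transcript. Of 5 measured thyroid follicular markers, PAX8 and NKX2-1 lay above the median level of all genes, while TG (shCSF2 4.58 ± 0.02, shCtrl 4.61 ± 0.03; log2 mean ± SD, n = 3) and TSHR (3.88 ± 0.09 and 3.86 ± 0.21) were dim. NKX2-1 was the only marker of this list that passed the test (-0.42 ± 0.04, log2 fold change ± SE). Of 6 epithelial markers, 4 lay above that median, 1 rose (CLDN1) and 1 fell (KRT8). The 3 measured leukocyte markers stayed at or below 4.72 on every array and the 3 endothelial ones between 5.43 and 6.71, with 0 called in either list by limma (0 at an unadjusted p under 0.05), and the part of other cells in the results was not tested. The 3' minus 5' difference of the GAPDH control probe sets was -0.02 to 0.0021 in shCSF2 and -0.05 to -0.03 in shCtrl cells (exact two-sided permutation p = 0.1, the smallest that 3 against 3 arrays can give), and the groups overlapped for ACTB (p = 0.6 by the same exact test). The part of RNA quality was not tested. In bulk RNA, fewer cells with a transcript and less of it per cell cannot be told apart.

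Of the 8 measured genes, CDH11 and JUP were lower in shCSF2 cells, CDH2 was slightly higher, and CDH1, CDH3, CDH6, CTNNA1 and CTNNB1 did not pass the test. The 2 falls were 1.46-fold for CDH11 and 1.39-fold for JUP, and the rise of CDH2 was 1.10-fold. A gene is represented here by its brightest probe set, taken by the mean of the 6 arrays, and passes when its limma p, adjusted by Benjamini-Hochberg over 18132 genes, is under 0.05. Of all genes, 32.7% passed in either direction, 16.7% as higher and 16% as lower, so 3 of 8 is close to the background. The median log2 fold change was -0.07 over the 8 genes and -0.03 over all genes. In 4 of the 8 the groups did not overlap (CDH2, CDH11, CTNNA1 and JUP), against 46.7% of all genes. By size, 97.1% of all genes had a smaller absolute log2 fold change than CDH11, and 95.5% a smaller one than JUP.

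**Figure D1:**
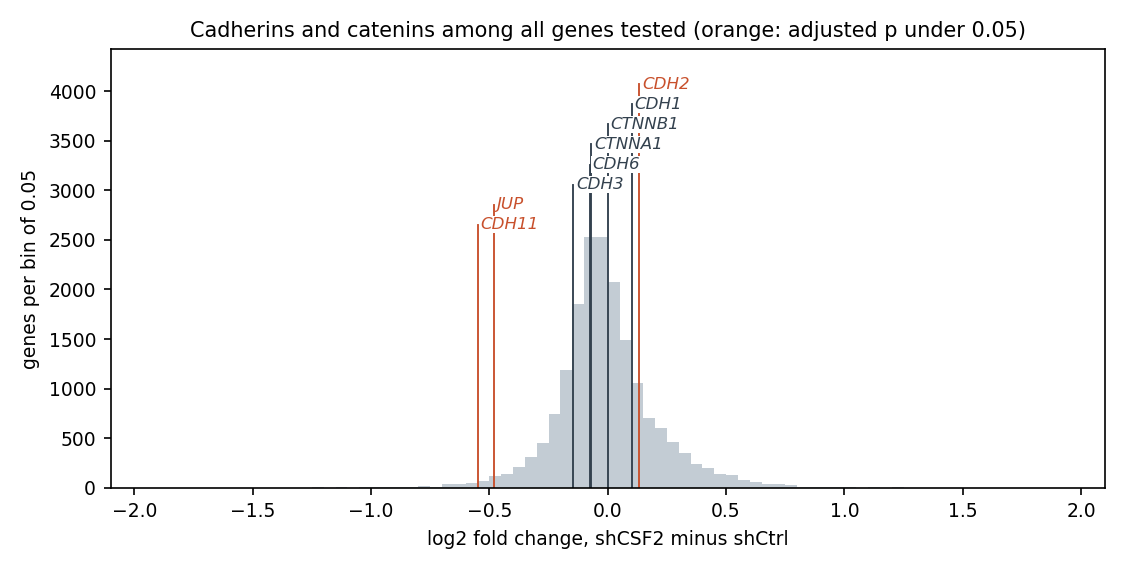
Histogram of the log2 fold change (shCSF2 minus shCtrl, x axis) of all 18132 genes tested, with the number of genes per bin of 0.05 on the y axis; vertical lines mark the 8 cadherin and catenin genes, orange where the adjusted p is under 0.05. CDH11 (-0.55) and JUP (-0.48) stand in the left tail, and the other 6 lie between -0.14 and 0.13.

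E-cadherin, the product of CDH1, joins epithelial cells. CDH1 read 3.66, 3.49 and 3.73 on the shCSF2 arrays and 3.55, 3.46 and 3.55 on the shCtrl arrays. The groups overlapped, and the values were dim, with 12.1% of genes at a lower mean. The log2 fold change was 0.10 ± 0.07 (SE) with a 95% interval of -0.05 to 0.26 and adjusted p = 0.290 (limma). It was 0.05 (adjusted p = 0.602) without shCSF2 replicate 3 and 0.17 (adjusted p = 0.0505) without shCSF2 replicate 2, and did not pass in any of the 14 alternatives that keep the gene. The second CDH1 probe set (0.11 ± 0.06) passed in 1 of 6 fits of all probe sets with 1 array left out, that without shCSF2 replicate 2. Both probe sets are dim, so a change in E-cadherin transcript may not be detectable on these arrays.

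N-cadherin is encoded by CDH2. It read 9.94, 9.91 and 9.94 on the shCSF2 arrays against 9.76, 9.81 and 9.82 on the shCtrl arrays. All 3 shCSF2 arrays were above all 3 shCtrl arrays, by a small margin. The log2 fold change was 0.13 ± 0.03 (SE; 95% interval 0.05 to 0.21; limma adjusted p = 0.0255). Leaving out shCSF2 replicate 1 or 3, or shCtrl replicate 1 or 2, ended the call, with adjusted p = 0.0779, 0.0741, 0.0834 and 0.0590, and so did averaging both probe sets of the gene (0.09, adjusted p = 0.0618) (0.000502 to 0.0834 in the 16 alternatives). Its other probe set overlapped between groups, at 8.96 ± 0.03 in shCSF2 and 8.92 ± 0.04 in shCtrl cells (mean ± SD, n = 3).

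P-cadherin (CDH3), another type I cadherin, is found in basal epithelia. CDH3 read 4.99, 4.85 and 5.11 on the shCSF2 arrays and 5.17, 5.07 and 5.14 on the shCtrl arrays, which overlap. Its log2 fold change of -0.14 ± 0.07 (95% interval -0.31 to 0.02) did not pass (limma adjusted p = 0.161). It moved with single arrays, to -0.21 without shCSF2 replicate 3, where it passed (adjusted p = 0.0441), and to -0.08 without shCSF2 replicate 2 (adjusted p = 0.359), the ends of the range over 15 alternatives. The type II cadherin CDH6, known from kidney and expressed in some thyroid carcinomas, read 4.44, 4.40 and 4.29 against 4.31, 4.51 and 4.54. The groups overlapped again, the log2 fold change of -0.08 ran from -0.15 to -0.03 with 1 array left out, and its 3 probe sets had log2 fold changes from -0.08 to 0.12, none of them called (0 of 3, also at an unadjusted p under 0.05; adjusted p from 0.282 to 0.863 in limma's fit of all probe sets).

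Cadherin-11, the other type II cadherin, is known from osteoblasts and fibroblasts. CDH11 read 9.16, 9.15 and 9.09 on the shCSF2 arrays and 9.65, 9.69 and 9.71 on the shCtrl arrays. The groups were far apart compared with their spread, which had an SD of 0.04 (shCSF2) and 0.03 (shCtrl). The log2 fold change was -0.55 ± 0.04 (SE; 95% interval -0.64 to -0.46; limma adjusted p = 0.000111), and it passed under all 16 alternatives run, with adjusted p of at most 0.00266. With all 6 probe sets averaged the value was -0.35.

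**Figure D2:**
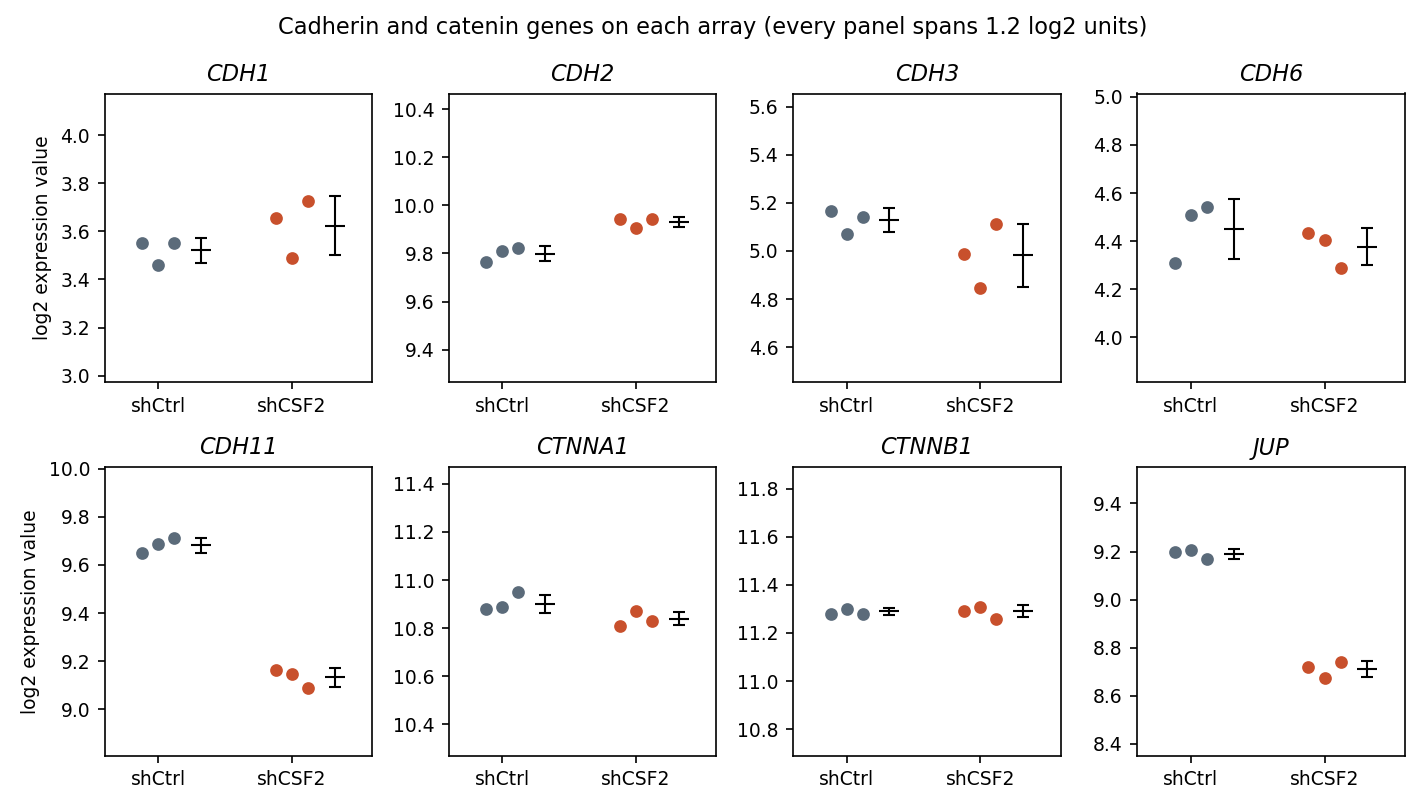
Log2 expression value (y axis) of the 8 measured cadherin and catenin genes on each shCtrl (grey) and shCSF2 (orange) array, by the probe set with the highest mean; bars are the group mean ± SD (n = 3), and every panel spans 1.2 log2 units. CDH11 and JUP separate widely, CDH2 narrowly, and CTNNB1 sits at 11.3 in both groups.

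The armadillo catenins, beta-catenin and plakoglobin, bind the same part of a cadherin tail, and plakoglobin (JUP) is also a component of desmosomes. JUP read 8.72, 8.67 and 8.74 on the shCSF2 arrays and 9.20, 9.21 and 9.17 on the shCtrl arrays. No shCSF2 array reached the lowest shCtrl array. The log2 fold change was -0.48 ± 0.04 (SE; 95% interval -0.56 to -0.39; limma adjusted p = 0.000139), which passed under all 16 alternatives run (adjusted p of at most 0.00290). JUP has 1 probe set, so no second probe set could be set beside it.

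Beta-catenin (CTNNB1) read 11.29, 11.31 and 11.26 on the shCSF2 arrays and 11.28, 11.30 and 11.28 on the shCtrl arrays. The groups overlapped and their means were equal to 2 decimals, at 11.29. The 95% interval of the log2 fold change, -0.08 to 0.08, bounds any difference by this probe set. The value of JUP minus that of CTNNB1 within each array was -2.57, -2.63 and -2.52 in shCSF2 and -2.08, -2.09 and -2.11 in shCtrl cells, where only the change between groups has a meaning, because probe sets differ in brightness. That change was -0.48, with no overlap between groups, and the exact two-sided permutation p was 0.1, the smallest this design can give, so it cannot pass 0.05. The same difference for CDH2 minus CDH1, the pair often read as a switch from epithelial to mesenchymal cadherin, was 6.31 ± 0.10 with shCSF2 and 6.28 ± 0.07 with shCtrl (mean ± SD, n = 3). These overlapped (difference 0.03, exact two-sided permutation p = 0.6), and the sign turned under 3 planned scalings or probe set choices, quantile normalisation again (-0.012), cyclic loess (-0.0040) and the mean of all probe sets (-0.018), and without shCSF2 replicate 2 (-0.0257) or shCtrl replicate 1 (-0.0023).

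Alpha-E-catenin (CTNNA1) couples the cadherin complex to actin. By its brightest probe set it read 10.81, 10.87 and 10.83 on the shCSF2 arrays and 10.88, 10.89 and 10.95 on the shCtrl arrays. The shCSF2 arrays lay below the shCtrl arrays, by less than the test requires (-0.07 ± 0.04, SE; 95% interval -0.16 to 0.02; limma adjusted p = 0.209). The gene passed with all probe sets averaged (-0.13, adjusted p = 0.0465) and with a variance trend and robust estimation (-0.07, adjusted p = 0.0348) (0.0348 to 0.501 in the 16 alternatives).

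Probe sets of one gene share transcripts and often overlap in sequence, so they are not replicates. In limma's fit of all 49293 probe sets, where 29.1% passed, 10 of the 31 cadherin and catenin probe sets passed, 1 as higher and 9 as lower, against 15.3% and 13.8% of all probe sets in those directions. The 9 lower ones were 4 of CDH11, 4 of CTNNA1 and the 1 of JUP. In 13 of the 31 the groups did not overlap, against 43.8% of all probe sets. The count of 10 fell to 5, 4, 6, 5 and 4 without shCSF2 replicate 1, shCSF2 replicate 3 and shCtrl replicates 1, 2 and 3, and was 7 without shCSF2 replicate 2, where 23% to 24.3% of all probe sets passed. JUP and 3 of the 4 CDH11 probe sets passed in each of these 6 fits, the 4 of CTNNA1 in at most 2, and that of CDH2 in 0 of 6.

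The CDH11 probe sets that passed had log2 fold changes of -0.55, -0.50, -0.42 and -0.39, in order of falling mean signal. The second brightest read 7.81, 7.67 and 7.79 on the shCSF2 arrays and 8.27, 8.24 and 8.26 on the shCtrl arrays. The other 2, with means of 4.92 and 4.86, overlapped between groups at -0.05 ± 0.05 and -0.18 ± 0.14 (log2 fold change ± SE). The 4 brighter probe sets thus passed and the 2 dimmest did not. Of the 7 CTNNA1 probe sets, 7 had a negative log2 fold change, and the 4 that passed lay between -0.17 and -0.14. The CTNNA1 probe set with the largest difference read 10.04, 10.15 and 10.11 on the shCSF2 arrays and 10.24, 10.30 and 10.27 on the shCtrl arrays, without overlap, but 1 CTNNA1 probe set had a mean of 1.98, at the bottom of the arrays' range. Of the 8 CTNNB1 probe sets, 0 passed in limma (adjusted p from 0.115 to 0.994), and 1 had an unadjusted p under 0.05. Their log2 fold changes ran from -0.11 to 0.01, with 7 of the 8 negative. In 2 of them the groups did not overlap, with shCSF2 below shCtrl.

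**Figure D3:**
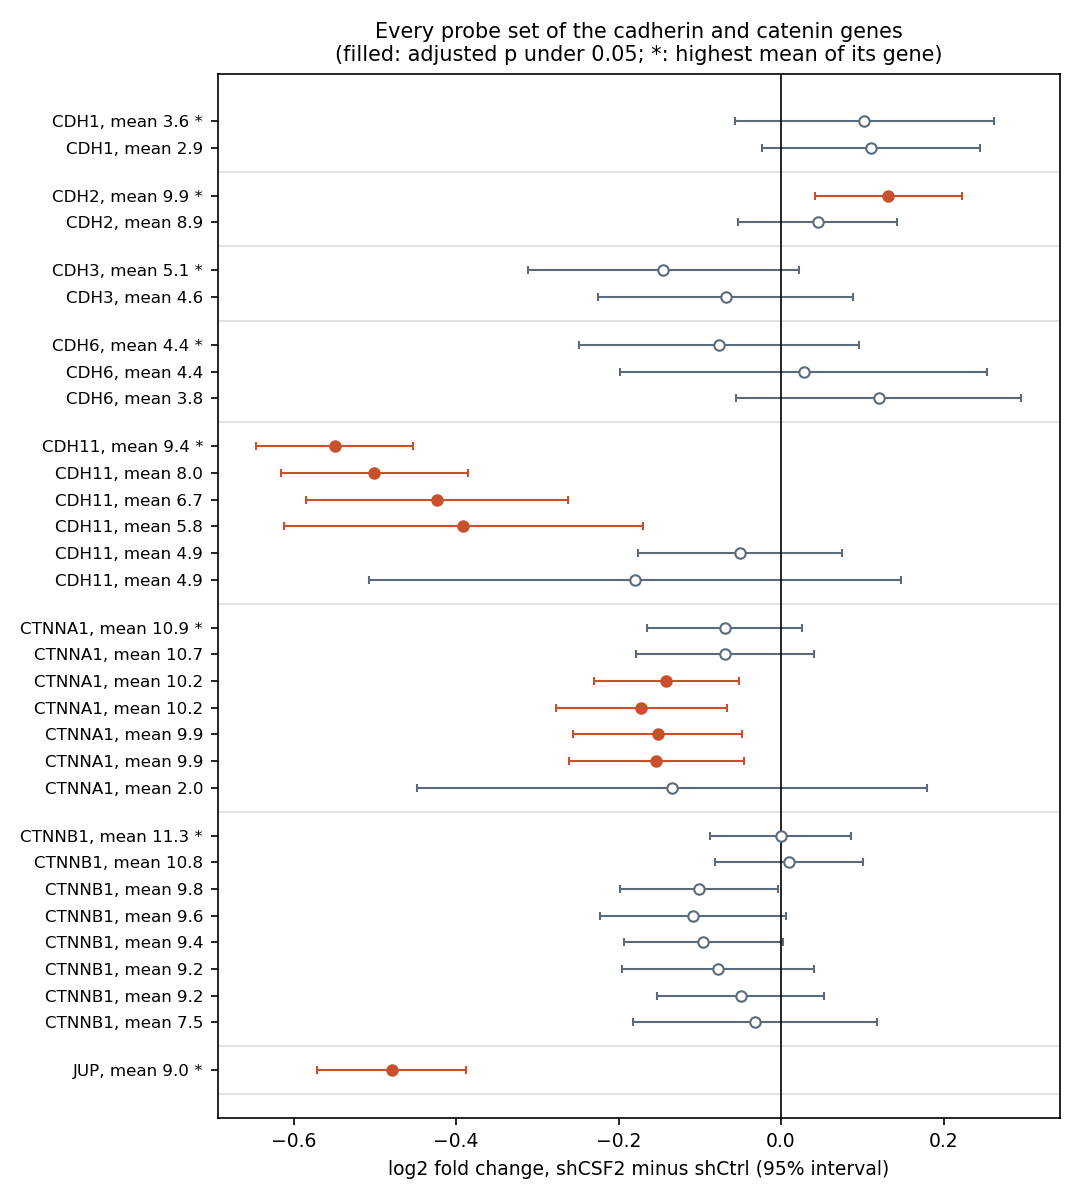
Log2 fold change (shCSF2 minus shCtrl, x axis) with its 95% interval for each of the 31 probe sets, grouped by gene and ordered by mean log2 value, which is written beside the gene; filled points have an adjusted p under 0.05 in the fit of all probe sets, and an asterisk marks the brightest of a gene. The 4 brighter CDH11 probe sets and JUP lie furthest left, and the CTNNB1 probe sets lie near 0.

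The RefSeq promoter table (GRCh38.p14) held 4 of the 9 genes, CTNNA1, CTNNB1, JUP and CDH2. The 250 bases before the start are shown for both start sites of JUP and of CDH2, because these 2 genes passed the test. Capitals mark matches, on either strand, to 4 motifs: the E-box CACCTG, bound by SNAIL and ZEB factors, the AP-1 site TGANTCA, the TCF-LEF site CTTTGAT and the GC-box GGGCGG. No match overlaps another in these 4 sequences.
JUP, start 1, chr17:41786712-41786961, minus strand: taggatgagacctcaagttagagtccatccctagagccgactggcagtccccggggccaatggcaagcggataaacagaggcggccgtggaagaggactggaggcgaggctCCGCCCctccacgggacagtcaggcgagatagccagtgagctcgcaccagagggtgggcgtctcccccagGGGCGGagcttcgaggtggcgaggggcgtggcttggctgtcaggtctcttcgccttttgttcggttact
JUP, start 2, chr17:41785977-41786226, minus strand: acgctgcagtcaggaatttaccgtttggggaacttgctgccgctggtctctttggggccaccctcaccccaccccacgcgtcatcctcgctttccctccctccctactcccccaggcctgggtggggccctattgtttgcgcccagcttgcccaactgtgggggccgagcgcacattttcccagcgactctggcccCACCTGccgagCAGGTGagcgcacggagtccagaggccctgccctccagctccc
CDH2, start 1, chr18:28177131-28177380, minus strand: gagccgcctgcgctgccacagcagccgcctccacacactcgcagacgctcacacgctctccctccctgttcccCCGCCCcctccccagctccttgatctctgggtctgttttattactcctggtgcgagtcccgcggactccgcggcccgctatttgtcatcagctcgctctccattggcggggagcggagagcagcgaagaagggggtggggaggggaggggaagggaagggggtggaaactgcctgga
CDH2, start 2, chr18:28036642-28036891, minus strand: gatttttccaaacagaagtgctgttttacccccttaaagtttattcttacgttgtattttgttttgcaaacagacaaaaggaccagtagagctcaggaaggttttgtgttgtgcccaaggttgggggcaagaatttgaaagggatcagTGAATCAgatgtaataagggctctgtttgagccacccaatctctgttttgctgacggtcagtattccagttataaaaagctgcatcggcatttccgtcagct
The second JUP sequence held 2 E-box matches, first bases at -54 and -43 from the start and 5 bases apart, and the first held 2 GC-boxes, at -139 and -69. The first CDH2 sequence held 1 GC-box, at -177, and the second 1 AP-1 match, at -102. Of the sequences not printed, that of CTNNB1 held 3 GC-boxes, those of the first 2 starts of CTNNA1 held 9 and 4, some overlapping, and those of its other 2 starts share 1 TCF-LEF match. Of all 35116 promoters in the table, 17.5% hold this E-box, 6.57% the AP-1 site, 2.26% the TCF-LEF site and 42.6% the GC-box in the same window. A match is a description of letters, not a site in use.

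The surrounding junction and signalling genes were followed in 11 lists of 109 genes, of which 105 were measured. Of these, 20 rose and 15 fell, a share of 33.3% against 32.7% of all genes, with a median log2 fold change of -0.01 against -0.03. The counts of each list below stand beside 16.7% of all genes called as higher and 16% as lower. Genes outside the naming rule stated with the methods are marked as named after their values were seen. Of 15 other cadherins, 0 rose and 1 fell, CDH12, a brain cadherin, at 7.09 ± 0.05 with shCSF2 and 7.46 ± 0.09 with shCtrl (log2 mean ± SD, n = 3; median of the list -0.07). All 3 CDH12 probe sets passed as lower. Of 6 other catenins and p120 relatives, only CTNNAL1, an alpha-catenin-like gene, passed, as higher (0.27 ± 0.06, log2 fold change ± SE), and its call was lost without shCSF2 replicate 1 (0.26, adjusted p = 0.0538) and without shCSF2 replicate 2 (0.23, adjusted p = 0.0572). CTNND2, ARVCF and PKP4, the relatives of p120-catenin, did not pass (0.01, -0.01 and -0.09, or -0.0018, -0.14 and -0.06 with all probe sets averaged), named after their values were seen. Of the 4 PKP4 probe sets, 1 passed as lower.

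Of 10 genes that link the cadherin complex to actin, 3 rose and 4 fell (median -0.04). That share is 70%, against 32.7% of all genes, and 64% of genes passed in the separate fit of those at or above the median mean. VASP, which promotes actin filament growth, rose most, from 8.17 ± 0.01 (shCtrl) to 9.08 ± 0.03 (shCSF2; log2 mean ± SD, n = 3). It has 1 probe set. AFDN, the gene of afadin, which ties nectins to actin, fell (-0.35 ± 0.04), by 2 of its 7 probe sets, and by 0.13 with all averaged. LIMA1 (0.30, or 0.18 with all probe sets averaged) and AJUBA (0.26, or 0.55 by the most variable probe set) rose, and the alpha-actinin genes ACTN1 (-0.24) and ACTN4 (-0.27) and the cortactin gene CTTN (-0.18) fell, all named after their values were seen. The call of CTTN was lost in 8 of 16 alternatives, among them the fits without shCSF2 replicates 1 and 3 (-0.17 and -0.14) and without each shCtrl array (-0.19, -0.16 and -0.20). Vinculin (VCL), which binds alpha-catenin under tension, did not pass by its brightest probe set (-0.09, adjusted p = 0.0776, with no overlap between groups), but 3 of its 4 probe sets passed as lower. With all 4 averaged VCL passed at -0.28 (adjusted p = 0.00125), and by the most variable one at -0.43 (adjusted p = 0.00527), so the difference depends on the probe set (5 of 16 alternatives passed, adjusted p from 0.00125 to 0.186, limma; named after its value was seen). Of 4 nectins, adhesion molecules that act beside cadherins, NECTIN3 rose (0.64 ± 0.03) and NECTIN2 fell (-0.22 ± 0.04), each by both of its probe sets, with a list median of -0.12. By its most variable probe set NECTIN3 was at 0.98.

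Plakoglobin is shared with desmosomes. Of 12 other desmosome genes, 0 rose and 2 fell (median -0.05). These were PKP2, a plakophilin (5.57 ± 0.11 with shCSF2 and 5.94 ± 0.10 with shCtrl), and PERP, a membrane protein of desmosomes (8.42 ± 0.02 and 8.67 ± 0.10; log2 mean ± SD, n = 3). By its most variable probe set PERP was no longer called (-0.22, adjusted p = 0.317). Desmoplakin (DSP), the main anchor to keratin, and desmoglein-2 (DSG2) did not pass (-0.01 and -0.10, or -0.02 and -0.05 averaged, named after their values were seen). The other 10 desmosome genes, DSP and DSG2 among them, gave no call by their brightest probe sets beside that of JUP. Of the 3 DSC3 probe sets, 1 passed as higher (named after its values were seen).

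Of 10 genes of cadherin shedding and turnover, 4 rose and 3 fell (70%, against 32.7% of all genes, with a median of 0.08). In the separate fit of genes at or above the median mean, 64% passed. RAB11A, a recycling GTPase, fell from 10.62 ± 0.02 to 10.19 ± 0.07 (log2 mean ± SD, n = 3) by all 4 of its probe sets, and the tyrosine kinase gene FER rose (0.35 ± 0.05, or 0.23 with all probe sets averaged). The sheddase gene ADAM17 (0.21, by 1 of its 4 probe sets) and CBLL1, which encodes a ubiquitin ligase of E-cadherin (0.28, or 0.17 averaged), rose. So did the phosphatase gene PTPRM (0.17), while the gamma-secretase gene NCSTN (-0.26) and the endocytic adaptor gene NUMB (-0.31) fell. ADAM10, in the same list, did not pass by its brightest probe set (-0.02), but 3 of its 4 probe sets passed as lower (-0.18 averaged). These genes are named after their values were seen. PTPRM was at 0.0053 with all probe sets averaged and at -0.09 by the most variable one, and lost its call without shCSF2 replicates 2 and 3 (0.14 and 0.16) and shCtrl replicates 1 and 3 (0.16 and 0.15). By their most variable probe sets ADAM17 (adjusted p = 0.118) and FER (0.0874) were not called, nor was CBLL1 when averaged (0.0598), all by limma.

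Of 12 genes of factors that repress CDH1, 1 rose and 3 fell (median -0.03). TCF4 fell (-0.32 ± 0.03) by 2 of its 11 probe sets, and no longer passed with all averaged (-0.10, adjusted p = 0.0629). PRRX1 rose (0.32 ± 0.08, or 0.16 averaged), and lost its call without shCtrl replicate 2 (0.30, adjusted p = 0.0585) or 3 (0.32, adjusted p = 0.0538). FOXC2 (-0.20) lost its call in each fit without 1 array (-0.23 to -0.13), and TCF3 fell by 0.17, or by 0.54 on its most variable probe set. These, and SNAI1 (0.04), SNAI2 (-0.10) and ZEB1 (-0.10, with 2 of 7 probe sets passing as lower), which did not pass, are named after their values were seen. Of 9 epithelial regulators, KLF4 rose (0.72 ± 0.06), EHF rose (0.47, or 0.14 averaged, named after its value was seen) and ELF3 fell (-0.59 ± 0.08, or -0.38 averaged), with a median of 0.01. EHF was dim, with 23.9% of genes at a lower mean, and 3 of its 8 probe sets passed as higher. Both lists held genes called in each direction, beside a CDH1 that did not pass.

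Beta-catenin is degraded by a complex built on APC and AXIN. Of 10 genes of this complex and its partners, 2 rose and 0 fell by their brightest probe sets (median 0.09). Among those not called, BTRC had 2 of 4 probe sets passing as higher (0.27 with all averaged) and APC 1 of 3 (0.25 averaged). CSNK1A1 had 2 of 11 passing as lower (-0.10 averaged) and FBXW11 1 of 4 (-0.04 averaged). BTRC, APC, CSNK1A1 and FBXW11 are named after their values were seen. The kinase gene GSK3B rose (0.28 ± 0.05) by 1 of 2 probe sets, and did not pass with both averaged (0.10, adjusted p = 0.0722). The beta-catenin inhibitor gene CTNNBIP1 rose (0.21 ± 0.06) by 1 of 4 probe sets, with 0.00013 when all were averaged, and lost its call in 7 of 16 alternatives, among them those without shCSF2 replicates 1 and 2 (0.21 and 0.18) and shCtrl replicates 2 and 3 (0.16 and 0.22). Of 7 TCF, LEF and cofactor genes, only BCL9L passed by its brightest probe set, as higher (0.14 ± 0.04). Its call was lost in 8 of 16 alternatives. Among them were those without shCSF2 replicates 1 and 3 (0.11 and 0.13) and each shCtrl array (0.15, 0.14 and 0.12). The median of the list was -0.14. Probe sets that passed as lower were 2 of 9 of LEF1, 1 of 2 of BCL9 (-0.24 averaged) and 1 of 3 of TCF7L1 (-0.22 averaged). LEF1, BCL9 and TCF7L1 are named after their values were seen.

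Of 12 genes known as targets of beta-catenin with TCF, 5 rose and 0 fell (median 0.11). The share called was 41.7%, against 32.7% of all genes in either direction and 16.7% as higher. In the separate fit of genes at or above the median mean, 64% passed in either direction. The growth regulator gene MYC rose from 8.69 ± 0.01 to 9.42 ± 0.01, and DKK1, a secreted Wnt inhibitor, from 9.94 ± 0.02 to 10.45 ± 0.04 (log2 mean ± SD, n = 3). CD44 (0.43, or 1.28 by its most variable probe set), ZNRF3 (0.47) and LGR5 (0.20) also rose, and AXIN2 (0.14, adjusted p = 0.302, or -0.0082 averaged), LEF1 (-0.28, adjusted p = 0.0501) and CCND1 (0.05, adjusted p = 0.342) did not pass in limma, all named after their values were seen. LEF1 passed in 4 of 14 alternatives, among them without shCtrl replicate 2 (-0.36, adjusted p = 0.0171), and was at -0.11 (adjusted p = 0.190, limma) with all 9 probe sets averaged. MYC, DKK1 and ZNRF3 have 1 probe set each, and 1 of the 2 probe sets of LGR5 passed. ZNRF3 and AXIN2 were dim, with 15.7% and 12.9% of genes at a lower mean. A change in AXIN2 transcript may thus not be detectable on these arrays. Many of these genes are known to answer to other pathways too.

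**Figure D4:**
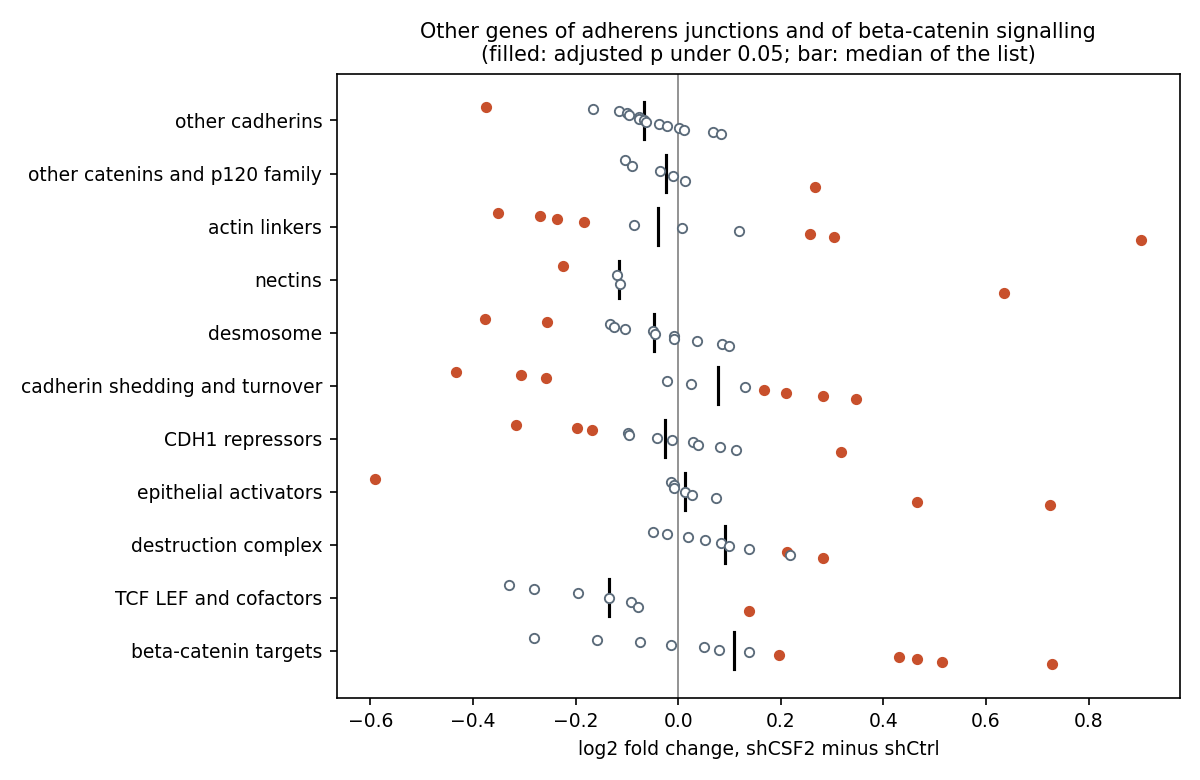
Log2 fold change (shCSF2 minus shCtrl, x axis) of each measured gene in the 11 lists of junction and beta-catenin signalling genes (rows; genes in 2 lists appear in both); filled points have an adjusted p under 0.05 and black bars are list medians. Medians lie between -0.14 and 0.11, and VASP (0.90), MYC (0.73), KLF4 (0.72) and NECTIN3 (0.64) lie furthest right.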

How the data were processed

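Total RNA (200 ng per sample, per the labels' protocols) was measured on Affymetrix PrimeView arrays with 3' labelling. The deposited values, 1 per probe set and array, are read as log2 summaries because of their range. RMA, oligo and limma are listed as tools, per the submitters' processing notes, with no version or role given. All 6 columns were mapped by sample, with 0 left over. Of 49395 probe sets, 102 controls were left out, 44988 had 1 gene symbol, 1832 several and 2473 none. Symbols were checked against RefSeq identifiers of GRCh38.p14 (27 unmatched, 0 changed).

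Groups were compared in limma 3.58.1 (R 4.3.3) by lmFit and eBayes, with no block, filter or trend. Benjamini-Hochberg adjustment ran over 18132 genes, each by its probe set with the highest mean, and separately over 49293 probe sets, with a threshold of 0.05. Within-array differences used exact permutation tests. On simulated data for this comparison (18132 genes, 50 changed at each size) the gene fit called 60% of those shifted by 0.3 (log2) and 82% of those shifted by 0.5. Of its 179 calls, 9 were false. The real fit called 5930 genes, and the adjustment depends on the share of changed genes. The simulated rates are therefore not those of the real fit. Alternatives were filters on dim genes, 3 further normalisations, a variance trend, array weights, other probe set choices, a replicate block and fits without 1 array. All 9 members are named, and from each of the 11 lists the 2 called genes with the largest change. The genes and lists were chosen with earlier results of these data known. Figures were drawn with matplotlib 3.10.9. Precision is limited by the number of arrays.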

Additional observations from a re-analysis of the deposited data

How the results depend on the processing

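CDH11 and JUP kept their direction and stayed past the threshold in all 16 alternatives run, with log2 fold changes from -0.57 to -0.35 and from -0.50 to -0.46. CDH2 stayed positive in all 16 and lost its call in 7. With all genes kept, 2 to 4 of 8 member genes passed across alternatives (3 as reported) and 31 to 49 of 105 context genes (35, or 33.3%), beside 27.1% to 37.8% of all genes. The highest counts were 4 and 49 (46.7%), with a variance trend and robust estimation, where 37.8% of all genes passed. Of genes with a mean of at least 5, 3 of 6 members and 43 of 77 context genes passed (51.4% of all), and of those at or above the median mean, 3 of 5 and 40 of 60 (64%). Leaving out 1 array at a time gave 4 to 7 member probe sets past the threshold in place of 10, with fewer arrays in each fit and 23% to 24.3% of all probe sets called in place of 29.1%. The CDH2 minus CDH1 difference was -0.012 with quantile normalisation again, -0.0040 with cyclic loess and -0.018 with all probe sets averaged, and ran from -0.0257 to 0.0753 with 1 array left out. CDH6 turned to 0.024 with all probe sets averaged and to 0.028 by the most variable probe set. PTPRM, a junction phosphatase gene, turned to -0.087 by its most variable probe set. CTNNB1 turned to 0.018, 0.00074 and 0.0082 under quantile normalisation again, median centring and cyclic loess, and ran from -0.010 to 0.014 with 1 array left out (0.0136 without shCSF2 replicate 3, 0.0068 without shCtrl replicate 2). The cause of these reversals was not tested. With the replicate number as a block, CDH2 no longer passed (0.13, adjusted p = 0.0571), and 2 member genes, 7 member probe sets and 34 context genes passed, where 30.2% of all genes and 26.1% of all probe sets did. Deviations of same-numbered arrays correlated at 0.025, 0.053 and 0.0329, with 0 of 3 pairs over 0.1, and 4 of 6 arrays correlated best with their own number. With 3 arrays a group, these values cannot decide whether the numbers pair the arrays. Among the members, dim signal limits CDH1, CDH3 and CDH6 most.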
